A study of Schizosaccharomyces pombe with 3 samples.

Results

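The genes described here reached their highest level at the middle of 3 glucose concentrations. Wild type S. pombe of strain 972 h- was grown to mid-log phase at 30°C in Synthetic Dextrose medium that held 3% (T1), 5% (T2) or 8% (T3) glucose from the start, and all media were inoculated from a single colony. RNA of 3 replicates was pooled for each concentration, and mRNA selected with oligo(dT) beads was sequenced as a single library for T1, T2 and T3 each. No difference therefore has a replicate check, no test between concentrations was possible, and the 95% intervals cover counting error only. The deposited tables list 444 genes, those that the authors screened as differentially expressed, and 177 of them have a value in every library. The members were chosen by their FPKM (fragments per kilobase of transcript, scaled to the fragments of the library), which had to be higher in T2 than in T1 and in T3. This order was found in 54 of the 177 genes. Genes of hexose uptake, of galactose, glycerol and disaccharide use and a few related ones were set aside by name, 17 in all, which leaves 37 members. Since the T2 level chose them, the ratios of T2 to the other libraries are descriptions.

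S. pombe prefers glucose and keeps many genes for other carbon sources at a low level while glucose is plentiful. This glucose repression works through repressors such as Scr1, which bind GC-rich boxes, and through the cAMP pathway, which holds back the activator Rst2. Osmotic, oxidative and nutrient stress act through the MAP kinase Sty1 on the bZIP factors Atf1 and Pcr1, which bind the cAMP response element (CRE). Genes close to the chromosome ends lie beside heterochromatin, and some belong to families of nearly identical copies.

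Counts and FPKM in the tables corresponded to 5745189 fragments for T1, 5888124 for T2 and 5818670 for T3. FPKM is a share of the RNA of the culture, so fewer cells with a transcript and less transcript per cell cannot be told apart. Members had between 48.9 and 55672 counts in T2, and none was at 0 in any library. Counts that are not whole mark genes that share reads with other sequences, which holds for 5 members (SPBPB10D8.05c, SPBPB2B2.18, SPAC977.18, ftm2 and wtf16). Names, positions and sequences are those of the assembly ASM294v3 from RefSeq, to which 34 members were matched by accession and 3 by description. The tables name no genome build. For the h- label, the tables hold an entry for the Mc gene of the M mating type, which was matched to mat3-Mc. It had 455 counts for T1, but only 1.2 for T2 and 0 for T3, so this entry was at or near 0 in both T2 and T3. Its counts were not whole, and other copies of the gene cannot be told apart from it by name. The entry therefore cannot check the h- label of any library.

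The promoters of 8 members are shown first because they hold TGACGT, the core of the CRE. The window ran from 250 bases before to 50 bases after the annotated gene start and was read on both strands, where ACGTCA is the same core. Given here are the 250 bases before the start of srk1, which has the most cores, of plb1, the most abundant member, and of vta1, which holds 3 kinds of motif. Each reads 5′ to 3′ in the direction of the gene. Capitals mark TGACGT and, on either strand, 3 further motifs. The element CCCCTC is a stress response element of the kind bound by Rst2. The box CCCCGC resembles the sites of the repressor Scr1. So does the variant box spelled CCCCAC.
srk1, chrIII:1301687-1301936, plus strand: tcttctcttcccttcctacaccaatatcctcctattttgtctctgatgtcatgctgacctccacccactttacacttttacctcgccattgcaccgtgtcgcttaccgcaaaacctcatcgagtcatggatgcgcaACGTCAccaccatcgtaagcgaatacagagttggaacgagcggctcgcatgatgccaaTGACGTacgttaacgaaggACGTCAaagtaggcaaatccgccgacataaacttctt
plb1, chrI:1076694-1076943, minus strand: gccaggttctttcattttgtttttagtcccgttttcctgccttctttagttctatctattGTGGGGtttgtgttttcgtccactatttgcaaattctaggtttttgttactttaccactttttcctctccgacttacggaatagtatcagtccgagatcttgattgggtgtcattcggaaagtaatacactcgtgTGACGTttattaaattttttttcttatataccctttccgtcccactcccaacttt
vta1, chrI:2179538-2179787, minus strand: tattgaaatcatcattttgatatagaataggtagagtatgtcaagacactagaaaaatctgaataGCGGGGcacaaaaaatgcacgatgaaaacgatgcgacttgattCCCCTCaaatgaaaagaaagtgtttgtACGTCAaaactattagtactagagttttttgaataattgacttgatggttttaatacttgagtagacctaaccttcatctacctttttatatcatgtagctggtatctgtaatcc

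In the srk1 promoter 3 CRE cores began 114, 56 and 37 bases before the start. A CCAAT motif shared its last base with the core at 56. The plb1 promoter had its core 55 bases before the start, and a CCCCAC box on the other strand lay further upstream. In the vta1 promoter the core began 115 bases before the start, with a CCCCTC and a CCCCGC match upstream of it. The remaining 5 promoters had a single core each, shown in capitals with 12 bases on either side. For rbd3 and say1 the annotated start is the start codon.
SPCC417.16, chrIII:1703675-1703704, minus strand: tctacttctcttTGACGTcgattttgtggg
SPBC725.03, chrII:1206960-1206989, plus strand: tagcaaagtcaaTGACGTttcagtcaaaca
rbd3, chrII:2890420-2890449, plus strand: ttttatttttttTGACGTaaaataatttta
SPBC56F2.05c, chrII:4109870-4109899, plus strand: gcgagtttgacaACGTCAtttctccccttc
say1, chrII:4460425-4460454, plus strand: taaattgtataaTGACGTaggactttaagg

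The CRE core was thus found in 8 of 37 member promoters (21.6%), against 7 of the 123 other genes with 3 values (5.69%) and 302 of all 5112 promoters (5.91%). Among the 17 genes set aside it was found in 2 (11.8%). Of the 15 members at least 2-fold above both T1 and T3, 1 had it (6.67%). Of the 19 at least 2-fold above T3 only, 7 had it (36.8%), a split made after seeing the data. The other genes also differ in direction, with a median T3/T1 ratio of 2.67 against 0.486 for the members. Whether the core goes with a peak in T2 or with a low level in T3 was not tested. With 500 bases before the start, a window chosen after seeing the data, it was found in 12 members (32.4%), 13 other genes (10.6%) and 8.53% of all promoters. CCCCGC was present in 3 members (8.11%), namely gti1, mug24 and vta1, against 17.6% of the genes set aside, 4.07% of the other genes and 1.1% of all promoters. CCCCAC was present in 2 members (5.41%), against 23.5% of the genes set aside, 3.25% of the other genes and 3.23% of all promoters. CCCCTC was also present in 2 (5.41%), against 0 of the genes set aside, 3.25% of the other genes and 2.11% of all promoters. The forkhead-like TTGTTT occurred in 59.5% of member promoters, 52.9% of the genes set aside, 53.7% of the other genes and 51.4% of all promoters. For CCAAT the shares were 43.2%, 23.5%, 39.8% and 42.2%. A match describes letters only, since binding was not measured.

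**Figure D1:**
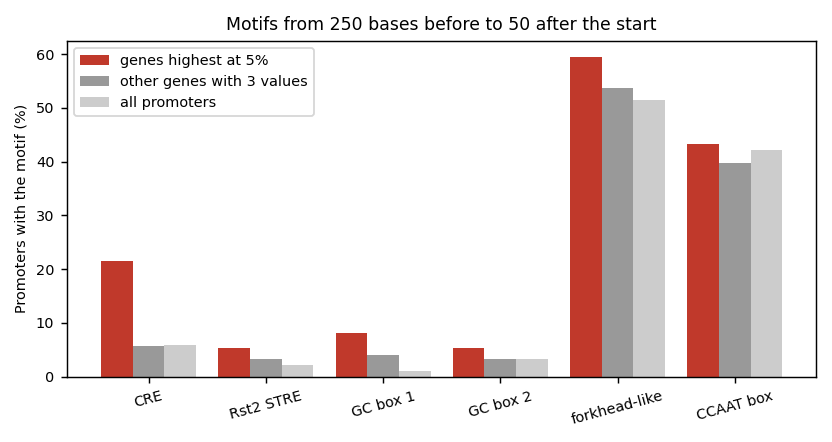
Share of promoters with each of 6 motifs (percent, vertical axis) for the genes highest at 5%, the other genes with 3 values and all promoters; GC box 1 is CCCCGC and GC box 2 is CCCCAC. The CRE bar of the genes highest at 5% stands at 21.6%, against 5.69% for the other genes and 5.91% for all promoters. Among the 15 members at least 2-fold above both T1 and T3, not drawn apart, the share was 6.67%.

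The members took 3 shapes. A T2 level at least 2-fold above both other libraries was found in 15 members (40.5%), beside 13.0% of the 177 genes with 3 values. Another 19 members exceeded T3 by 2-fold or more but T1 by less than that. The last 3 exceeded T1 by 2-fold or more and lay close to T2 in T3. Counted singly, 18 members (48.6%) were 2-fold or more above T1, beside 28.2% of the 177 genes, and 34 members (91.9%) were 2-fold or more above T3, beside 43.5%. The rule itself used these ratios. The authors called genes at 2-fold or more, and only genes called in more than a single comparison have a value in every library. With T2 highest, such genes can take only these 3 shapes. The calls also set T3 at least 2-fold below T1 in the 19 members and at least 2-fold above T1 in the last 3.

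**Figure D2:**
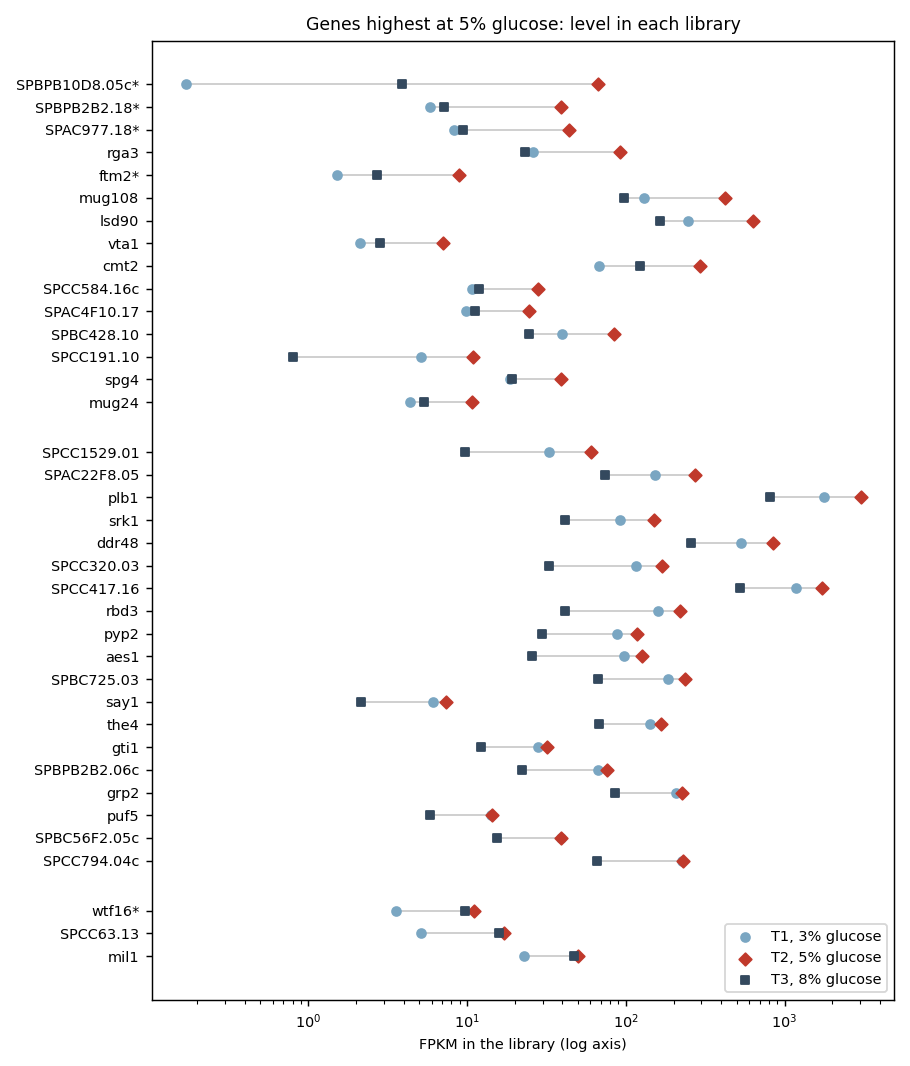
FPKM of each member (horizontal log axis) in T1 (3%, circle), T2 (5%, diamond) and T3 (8%, square), in blocks of 15, 19 and 3 genes for the 3 shapes, with an asterisk for genes that share reads. In the block of 19 genes T3 lies left of T1 in every line, which the authors' calls required, with a median T3/T1 ratio of 0.398.

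The median level of the members was 39.0 FPKM in T1, 76.5 FPKM in T2 and 23.1 FPKM in T3. For the 123 other genes the medians were 12.8, 17.4 and 29.5 FPKM. The level in T3 was below that in T1 for 24 members (64.9%), beside 45.8% of the 177 genes, and all 24 intervals lay below 1. It was lower by 2-fold or more for 20 of them (54.1%), beside 42.4%. The other 13 members (35.1%) had a higher level in T3 than in T1, beside 54.2%, but only SPBPB10D8.05c, cmt2, wtf16, SPCC63.13 and mil1 had an interval above 1. The T1 and T3 libraries also entered the rule, so these counts are descriptions too. For members of the second and last shapes, the direction from T1 to T3 was set by the authors' calls.

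The 15 members of the first shape were mostly of low level, with medians of 9.91 FPKM in T1, 39.4 FPKM in T2 and 11.2 FPKM in T3. Their median T2/T1 ratio was 3.22 and their median T2/T3 ratio 3.41. Listed in the order T1, T2, T3, as are all triplets of values below, the gene rga3 had 25.99, 92.0 and 23.1 FPKM, from 857, 3115 and 773 counts. T2 stood apart from libraries that lay close together, with a T2/T1 ratio of 3.54 (3.28 to 3.82), a T2/T3 ratio of 3.98 (3.68 to 4.31) and a T3/T1 ratio of 0.889 (0.805 to 0.981).

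The gene mug108, one of the genes named for upregulation in meiosis, had 130.3, 420.0 and 97.4 FPKM. Its T2/T1 ratio was 3.22 (2.97 to 3.50) and its T2/T3 ratio 4.31 (3.94 to 4.73). In ASM294v3 all 1128 bases of mug108 lie within rga3 on the opposite strand. For mug108 the counts were 769, 2575 and 588, beside 857, 3115 and 773 for the whole of rga3. Both genes had whole counts, which do not settle whether a read was counted for both. No assignment of reads by strand is described. Whether reads of this stretch entered the values of both genes was not tested, so the ratios of rga3 and mug108 may not be independent.

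The gene lsd90 was the most abundant of the first shape, at 246, 631 and 165 FPKM. The T2/T1 ratio came to 2.57 (2.46 to 2.68), the T2/T3 ratio to 3.82 (3.65 to 4.01) and the T3/T1 ratio to 0.672 (0.635 to 0.710). T3 was thus the lowest library for lsd90, as it was for the uncharacterized SPBC428.10. SPBC428.10 had 39.8, 84.4 and 24.8 FPKM, a T2/T1 ratio of 2.12 (1.94 to 2.32) and a T2/T3 ratio of 3.41 (3.07 to 3.79).

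Uncharacterized genes of low level were SPCC584.16c and SPAC4F10.17. SPCC584.16c had 10.7, 28.1 and 12.01 FPKM from 39, 107 and 45 counts, with a T2/T1 ratio of 2.62 (1.80 to 3.88) and a T2/T3 ratio of 2.34 (1.64 to 3.39). SPAC4F10.17 had 9.91, 24.7 and 11.2 FPKM from 51, 132 and 59 counts, with a T2/T1 ratio of 2.49 (1.79 to 3.51) and a T2/T3 ratio of 2.20 (1.61 to 3.05). For both, T3 and T1 differed by less than the counting error.

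A like spacing was seen for spg4, an AAA domain gene, and mug24, which encodes an RNA-binding protein of the RRM type. The levels of spg4 were 18.7, 39.2 and 19.3 FPKM, with a T2/T1 ratio of 2.10 (1.84 to 2.40) and a T2/T3 ratio of 2.03 (1.78 to 2.32). Those of mug24 were 4.39, 10.8 and 5.36 FPKM, with a T2/T1 ratio of 2.47 (1.9995 to 3.06) and a T2/T3 ratio of 2.02 (1.66 to 2.46). Both lay just past 2-fold against T3.

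**Figure D3:**
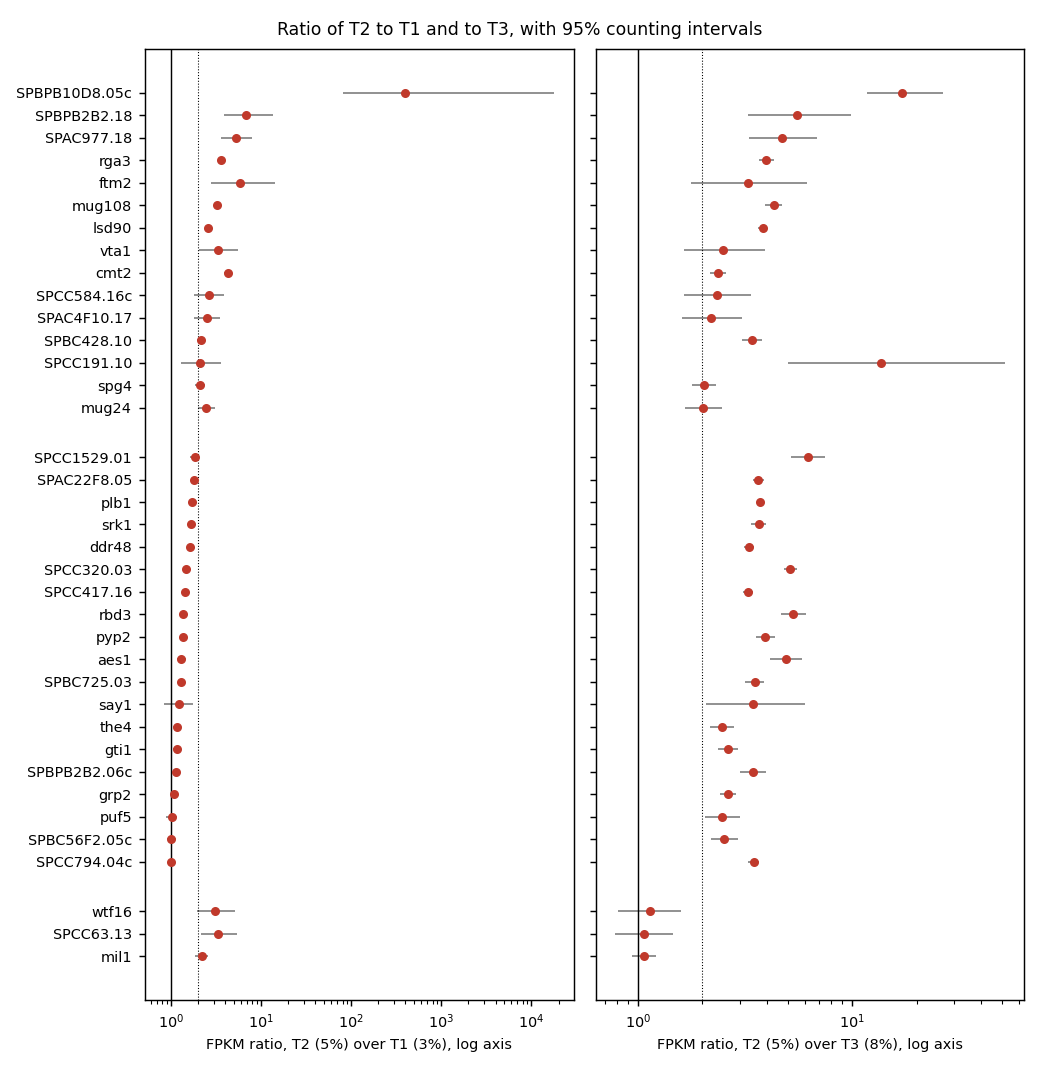
FPKM ratio of T2 over T1 (left) and T2 over T3 (right) for each member on log axes, with 95% counting intervals, a solid line at 1 and a dotted line at 2. In the block of 19 genes the T2/T1 ratios reach at most 1.84, while the T2/T3 ratios run between 2.47 and 6.20.

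Chromosome position was not used to choose the members. Within 100 kb of an end of chromosome I or II lay 8 members (21.6%), against 5 of the 123 other genes with 3 values (4.07%) and 124 of 5113 protein-coding genes (2.43%). Of the 17 genes set aside, 5 lay there too (29.4%). The 8 members are SPAC977.18 and ftm2 on chromosome I and SPBPB10D8.05c, cmt2, aes1, say1, SPBPB2B2.06c and SPBPB2B2.18 on chromosome II. Of these, 4 share reads with other sequences, against 1 of the 29 members farther from the ends. Counting within 50 kb left 3 members, SPAC977.18, ftm2 and SPBPB2B2.18, and all 3 share reads.

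**Figure D4:**
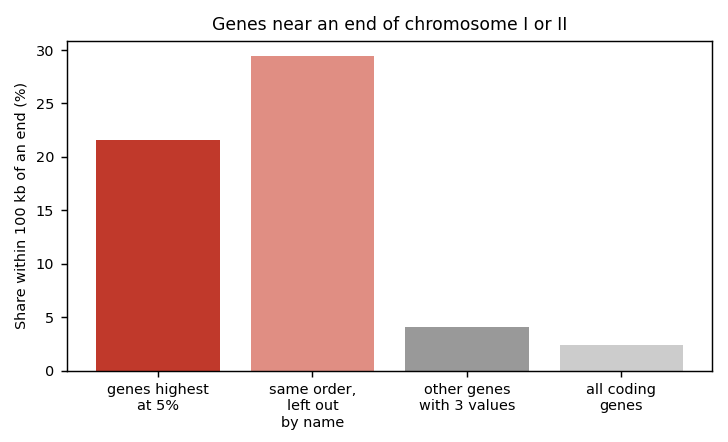
Share of genes within 100 kb of an end of chromosome I or II (percent, vertical axis) for the genes highest at 5%, the genes of the same order left out by name, the other genes with 3 values and all coding genes. The bars stand at 21.6%, 29.4%, 4.07% and 2.43%.

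The gene cmt2 encodes a catechol O-methyltransferase and has whole counts. It had 68.1, 292 and 124 FPKM, from 419, 1868 and 778 counts. The T2/T1 ratio was 4.29 (3.86 to 4.79) and the T2/T3 ratio 2.37 (2.17 to 2.58), and T3 stayed above T1 with a ratio of 1.82 (1.61 to 2.05). The gene aes1, known as an enhancer of RNA-mediated gene silencing, has an identifier of the same group (SPBPB21E7) but its lowest level in T3. Its levels were 96.9, 126 and 25.7 FPKM, its T2/T1 ratio 1.30 (1.17 to 1.45) and its T2/T3 ratio 4.91 (4.15 to 5.84). The tables list 3 of the 8 genes of this identifier group.

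Of 17 genes with SPBPB2B2 identifiers the tables list 10, and 3 are members. SPBPB2B2.06c, annotated as a phosphoprotein phosphatase, had 66.7, 76.5 and 22.2 FPKM, a T2/T1 ratio of 1.15 (1.04 to 1.26) and a T2/T3 ratio of 3.45 (3.01 to 3.96). The sterol deacetylase gene say1 had 6.14, 7.43 and 2.15 FPKM from 56, 70 and 20 counts. Its T2/T1 ratio of 1.21 (0.839 to 1.75) was within counting error, whereas its T2/T3 ratio was 3.46 (2.08 to 5.999). In this group 8 genes had values in every library, and 7 were highest in T2, namely the 3 members and gal1, gal7, gal10 and tgd1, which were set aside. SPBPB2B2.05 was highest in T1, with 18.2 FPKM there, 9.57 in T2 and 3.62 in T3.

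The remaining gene of the group, SPBPB2B2.18, resembles SPAC977.18 near an end of chromosome I, and both are uncharacterized. Their coding sequences differ at 10 of 295 aligned bases. The aligned part is 73.4% of the 402 bases of SPAC977.18 and 63.9% of the 462 bases of SPBPB2B2.18. The stretch of 90 bases below holds 9 of the 10 differences, in capitals. It was chosen as the ungapped stretch of this length with the most differences, and most of them cluster near its 3′ end.
SPAC977.18: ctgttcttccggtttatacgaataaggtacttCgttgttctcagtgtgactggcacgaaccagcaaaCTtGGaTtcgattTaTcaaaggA
SPBPB2B2.18: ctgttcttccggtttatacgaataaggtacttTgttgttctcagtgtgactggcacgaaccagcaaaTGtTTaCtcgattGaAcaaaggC

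SPAC977.18 had 8.29, 44.1 and 9.39 FPKM from 32.6, 181 and 38.0 counts, with a T2/T1 ratio of 5.32 (3.61 to 7.85) and a T2/T3 ratio of 4.69 (3.29 to 6.84). SPBPB2B2.18 had 5.83, 39.4 and 7.13 FPKM from 13.4, 95.8 and 17.0 counts, with a T2/T1 ratio of 6.75 (3.89 to 13.6) and a T2/T3 ratio of 5.52 (3.28 to 9.90). Both were far higher in T2 than in either other library, where they differed by less than the counting error.

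The gene ftm2 encodes a protein with transmembrane helices and is the neighbour of SPAC977.18, on the other strand and 42 bases away. In the order of coding genes by position no other members stand next to each other, since SPAC29A4.22 comes between the overlapping rga3 and mug108. It had 1.53, 8.92 and 2.73 FPKM, a T2/T1 ratio of 5.83 (2.76 to 14.4) and a T2/T3 ratio of 3.27 (1.77 to 6.16). The 441 bases of its coding sequence are identical in ftm3, and 1 base differs in ftm6 and ftm7. No entry of the tables was matched to ftm3, ftm6 or ftm7, so the level of the family as a whole is not shown here.

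The transporter gene SPBPB10D8.05c had the highest ratios of all members. Its levels were 0.17, 66.8 and 3.89 FPKM, from 1.15, 475 and 27.2 counts. The T2/T1 ratio of 393 (80.7 to 17878) rests on about 1 count in T1, and the T2/T3 ratio was 17.2 (11.7 to 26.5). Its coding sequence of 1140 bases is identical to those of SPBPB10D8.04c, SPBPB10D8.06c and SPBPB10D8.07c.

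SPBPB10D8.04c and SPBPB10D8.06c had their highest values in other libraries than T2. SPBPB10D8.04c had 415 counts in T1, 103 for T2 and 55.1 for T3. SPBPB10D8.06c had 0 counts in T1, then 159 in T2 and 685 in T3. Summed over SPBPB10D8.04c, SPBPB10D8.05c and SPBPB10D8.06c, the counts were 416, 737 and 768, so the sum was not highest in T2. SPBPB10D8.07c had 542 counts in T3 and 1133 in T1, with no value for T2.

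**Figure D5:**
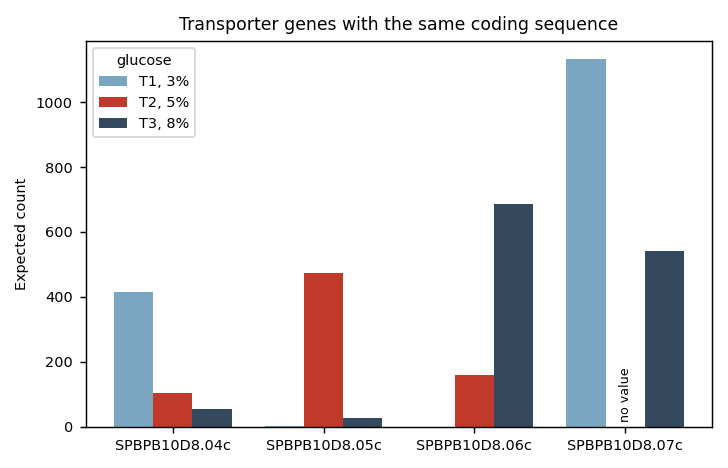
Expected counts (vertical axis) in T1, T2 and T3 of 4 transporter genes with identical coding sequence. SPBPB10D8.05c peaks in T2 at 475 counts, SPBPB10D8.06c in T3 at 685 and SPBPB10D8.04c in T1 at 415.

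Next to a gene that was also highest in T2, by position among coding genes and with overlaps not counted, lay 6 members (16.2%). The share was 11 of the 17 genes set aside (64.7%), 6 of the 123 other genes (4.88%) and 102 of all coding genes (1.99%). For SPAC977.18 and ftm2 it is the other member, and for the other 4 it is a gene that was set aside. The predicted transporter gene SPCC1529.01 lies between the hexose transporter gene ght1 and gcd1. It had 32.9, 60.5 and 9.76 FPKM, a T2/T1 ratio of 1.84 (1.64 to 2.06) and a T2/T3 ratio of 6.20 (5.18 to 7.47).

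The uncharacterized SPCC191.10 lies 1036 bases from the invertase gene inv1 on the same strand. It had 5.14, 10.9 and 0.800 FPKM from 25, 55 and 4 counts, a T2/T1 ratio of 2.11 (1.29 to 3.54) and a T2/T3 ratio of 13.6 (5.01 to 51.6), so it was nearly absent from T3. The gene vta1, annotated in the Vts1 family, lies 415 bases from gld1 on the same strand. Its levels were 2.13, 7.08 and 2.82 FPKM from 23, 79 and 31 counts, its T2/T1 ratio 3.32 (2.07 to 5.54) and its T2/T3 ratio 2.51 (1.64 to 3.94). The mitochondrial rhomboid protease gene rbd3 lies 665 bases from rsv1. It had 161, 219 and 41.3 FPKM, a T2/T1 ratio of 1.36 (1.26 to 1.48) and a T2/T3 ratio of 5.30 (4.66 to 6.06).

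The 19 members of the second shape were more abundant, with medians of 115 FPKM in T1, 168 FPKM in T2 and 41.3 FPKM in T3. All 19 had whole counts. Their median T2/T1 ratio was 1.30 and their median T2/T3 ratio 3.48. The CRE core was found in 7 of their promoters (36.8%), against 1 of 15 in the first shape (6.67%) and 0 of 3 in the last, a split made after seeing the data.

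The lysophospholipase gene plb1 was the most abundant member, at 1759.7, 3016 and 812 FPKM. Its T2/T1 ratio was 1.71 (1.69 to 1.74) and its T2/T3 ratio 3.71 (3.65 to 3.78). SPCC417.16, annotated as a subunit of the NADH-ubiquinone reductase complex, came next with 1186, 1711 and 523 FPKM, a T2/T1 ratio of 1.44 (1.39 to 1.498) and a T2/T3 ratio of 3.27 (3.11 to 3.44). The gene ddr48, whose namesake in S. cerevisiae responds to DNA damage and stress, had 531, 852 and 258 FPKM, a T2/T1 ratio of 1.61 (1.54 to 1.67) and a T2/T3 ratio of 3.30 (3.14 to 3.47). For all 3, T3 was the lowest library and T1 lay between.

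Also of this shape were SPAC22F8.05, srk1 and pyp2. SPAC22F8.05, a predicted trehalose-phosphate synthase gene, had 152, 271 and 74.3 FPKM, a T2/T1 ratio of 1.78 (1.70 to 1.87) and a T2/T3 ratio of 3.65 (3.44 to 3.87). Trehalose is a sugar that yeast cells store under stress. The gene srk1 encodes a kinase that Sty1 activates, and it had 92.1, 151 and 41.3 FPKM, a T2/T1 ratio of 1.64 (1.55 to 1.75) and a T2/T3 ratio of 3.66 (3.38 to 3.97). The gene pyp2 encodes a phosphatase that inactivates Sty1, and it had 87.6, 118 and 29.9 FPKM, a T2/T1 ratio of 1.34 (1.25 to 1.44) and a T2/T3 ratio of 3.94 (3.56 to 4.36). The srk1 promoter is the one with 3 CRE cores, while none was found in that of pyp2.

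Regulators of expression were SPCC320.03 and SPBC56F2.05c, both predicted transcription factors, gti1, an inducer of gluconate uptake, and puf5, of the Pumilio family of RNA-binding proteins. SPCC320.03 had 115, 169 and 32.8 FPKM, a T2/T1 ratio of 1.46 (1.40 to 1.53) and a T2/T3 ratio of 5.14 (4.81 to 5.51). The levels of gti1 were 27.9, 32.1 and 12.2 FPKM, with a T2/T1 ratio of 1.15 (1.06 to 1.25). These genes shared the low level in T3, and they differed in how far T2 exceeded T1.

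Among metabolic genes, SPBC725.03, annotated as a pyridoxamine 5'-phosphate oxidase, had 184, 235 and 66.9 FPKM and a T2/T3 ratio of 3.52 (3.18 to 3.90). The acyl-CoA thioesterase gene the4 had 143, 168 and 68.1 FPKM and a T2/T3 ratio of 2.47 (2.17 to 2.81). The Golgi protein gene grp2 had 208, 226 and 85.8 FPKM and a T2/T3 ratio of 2.63 (2.42 to 2.86). It overlaps ish1 on the opposite strand over 633 bases (41.9% of grp2), and ish1 had 349 FPKM in T2 and 122 FPKM in T3, both genes with whole counts. Whether reads of the overlap entered both values was not tested.

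The members nearest the threshold were SPCC794.04c, SPBC56F2.05c and puf5. The predicted transporter gene SPCC794.04c had 227, 228 and 65.7 FPKM, a T2/T1 ratio of 1.004 (0.966 to 1.04) and a T2/T3 ratio of 3.48 (3.28 to 3.69). SPBC56F2.05c had 39.0, 39.3 and 15.5 FPKM, a T2/T1 ratio of 1.01 (0.902 to 1.12) and a T2/T3 ratio of 2.53 (2.19 to 2.93). For puf5 the levels were 14.2, 14.5 and 5.86 FPKM, the T2/T1 ratio 1.02 (0.882 to 1.17) and the T2/T3 ratio 2.47 (2.05 to 2.98). With say1, these are the 4 members whose T2/T1 interval held 1.

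Just outside lay wwm3, SPAC3G6.07 and SPCC417.15, each slightly higher in T1. The gene wwm3 had 1208, 1179.5 and 55.5 FPKM, a T2/T1 ratio of 0.977 (0.949 to 1.01) and a T2/T3 ratio of 21.2 (19.3 to 23.5). SPAC3G6.07 had 5.93, 5.67 and 0.790 FPKM, a T2/T1 ratio of 0.956 (0.505 to 1.81) and a T2/T3 ratio of 7.18 (2.16 to 37.5). SPCC417.15, which overlaps its neighbour SPCC417.16 by 58 bases on the same strand, had 209, 196 and 59.5 FPKM, a T2/T1 ratio of 0.936 (0.803 to 1.09) and a T2/T3 ratio of 3.29 (2.63 to 4.15).

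The last shape comprised SPCC63.13, mil1 and wtf16, where T1 rather than T3 was the lowest library. SPCC63.13, of the DNAJ family of chaperones, had 5.12, 17.0 and 15.9 FPKM, a T2/T1 ratio of 3.32 (2.13 to 5.36) and a T2/T3 ratio of 1.07 (0.784 to 1.46). The gene mil1, described in the tables as a DUF726 family gene, had 22.9, 50.01 and 46.9 FPKM, a T2/T1 ratio of 2.181 (1.86 to 2.57) and a T2/T3 ratio of 1.07 (0.937 to 1.21). The gene wtf16, annotated as an antidote-like suppressor of meiotic drive, had 3.56, 11.02 and 9.67 FPKM, a T2/T1 ratio of 3.10 (1.93 to 5.11) and a T2/T3 ratio of 1.14 (0.806 to 1.60). T2 and T3 did not differ beyond counting error in any of these 3 genes.

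Lists of related pathways were also compared with the members. Of 34 core stress genes in the reference 10 were in the tables, and pyp2 was the only member (2.7% of the members, against 3.39% of the 177 genes that are on this list). Of the 8 listed genes with a ratio of T2 to T3, 6 were at least 2-fold higher in T2 (75.0%, beside 46.5% of all genes in the tables) and 2 at least 2-fold lower (25.0%, beside 37.2%). Of the 8 with a ratio of T3 to T1, 4 were at least 2-fold higher in T3, beside 61.5% of all genes in the tables, and 4 at least 2-fold lower, beside 34.3%. Of 13 telomere-linked genes cmt2 alone was in the tables. The list of alternative carbon use was made without the genes set aside by name, so that it could hold none of them. It (27 genes) and the lists of nitrogen starvation and amino acid uptake (26), phosphate (7), iron (17), meiosis and sporulation (45) and adhesins (21) held no member, with 1, 2, 1, 3, 5 and 4 genes in the tables. Only 0, 1, 1, 0, 2 and 2 of these genes had 3 values and could have been members. Each list thus made up at most 1.13% of the 177 genes, and its lack of members says little. Of 110 genes with a mug or meu symbol in ASM294v3, 16 were in the tables, and mug108 and mug24 were members. They made up 5.41% of the members, beside 3.39% of the 177 genes with such a symbol. Renamed genes were not counted, such as the member say1, which the tables call mug180. By product name, 4 members (10.8%) matched transporter or permease, beside 7.91% of the 177 genes, and gti1 is an inducer among them.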

How the data were processed

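RNA of wild type cells at 3 glucose concentrations was sequenced, with 3 replicates pooled into a single library each. The authors filtered reads, aligned them with BWA and Bowtie and quantified genes with RSEM. The deposited tables give expected counts, and FPKM as computed by the authors, for genes they called. Columns of the authors' log2 ratios, p-values and FDR were not used. No source used here names the genome build.

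The 3 tables were joined by gene identifier, and a library with 0 counts was set to 0 FPKM. Ratios of FPKM carry 95% Clopper-Pearson intervals computed from the rounded counts, a calculation tested on simulated data. Counts over 0.005 from a whole number mark shared reads. Coding sequences were compared with blastn 2.17.0. Python 3.11.15, numpy 2.4.6, pandas 2.3.3, scipy 1.17.1 and matplotlib 3.10.9 were used.

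Given in full were the 12 members with the largest smaller ratio, members within 100 kb of a chromosome end or next to another member, the 3 members with the smallest ratio, the 3 genes just outside and the 5 most abundant members. Other members are examples by role, and genes that are no members were named after their values were seen. Members and lists were chosen with earlier results of these data known. Alternatives were counts per gene-mapped read, a pseudocount of 1 FPKM, a minimum of 10 counts, a margin of 1.2, intervals above 1, whole counts only, other distances from the ends and a longer promoter window.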

Additional observations from a re-analysis of the deposited data

How the results depend on the processing

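Each concentration has a single library, so no value has a replicate error, no replicate could be left out, and genes called in no more than a single comparison could not be placed in an order. No paired analysis was possible because each concentration has a single library and no test was run. The number of members was 37, and it became 38 by counts per gene-mapped read, where wwm3 entered, 27 with a margin of 1.2 over the next library, 30 with both intervals above 1, and 32 with whole counts only. With a pseudocount of 1 FPKM the number at least 2-fold above T1 was 17 in place of 18, and that above T3 was 32 in place of 34. Among the counts of members, the number near a chromosome end moved most. It was 8 within 100 kb, 3 within 50 kb and 8 within 200 kb, and 4 with whole counts only, a setting chosen after seeing the data. Of 74 single ratios, 2 left their counting interval by counts per gene-mapped read, T2 over T1 of plb1 (1.75) and SPCC417.16 (1.4985). With a pseudocount of 1 FPKM, T2 over T1 of SPBPB10D8.05c was 57.9 and the other 73 stayed within theirs. No ratio of a member changed direction.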
